A study of Mus musculus with 2 samples.

Results

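Solute carriers are the genes of the Slc families, which encode membrane proteins that move sugars, amino acids, ions, metals, nucleotides and vitamins across the plasma membrane and the membranes of organelles. The expressed members were chosen by their symbol (Slc, a family number, a letter and a member number) and by an expression value of at least 1 in the larger of 2 libraries. Of 18888 genes in the deposited table, 321 carry such a symbol and 196 of them, from 45 families, passed. The expression values chose these genes, so their levels are given as a description and no test is made.

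46C mouse embryonic stem cells (mESCs) carried either the empty PiggyBac vector (PB) or the same vector with a telomeric repeat insert that expresses polyadenylated TERRA, the noncoding RNA of telomeres (PB-TERRA). Both lines were kept on gelatin in mESC medium and were at passages 21-24. Total RNA of each was sequenced as 1 library, so the spread between cultures is unknown and the values compare libraries, not conditions. The values are read as FPKM, expression scaled to gene length and library depth, because the header names no unit. All 8 listed mESC markers passed 1 FPKM, with sums of 2621.81 FPKM in PB and 2545.92 in PB-TERRA. Of these markers 5 were higher in PB-TERRA, among them Tfcp2l1 (27.02 and 34.08 FPKM) and Esrrb (127.58 and 140.84), and 3 were lower. Of the lower ones, Dppa5a (1162.50 and 1039.92) differed by more than the sums did, and without it the sum was higher in PB-TERRA. The listed markers of fibroblasts summed to 18.90 and 22.84 FPKM, of primitive endoderm to 10.33 and 14.18, of neural cells to 86.66 and 74.50, of trophoblast to 16.34 and 17.36 and of mesoderm to 10.72 and 10.28. None of these markers was at the floor of 0.01 FPKM in both libraries (0 genes), but some had little expression. Under 1 FPKM in both were 3 of 6 fibroblast, 1 of 6 primitive endoderm and 2 of 5 neural markers. The same held for 2 of 5 trophoblast and 2 of 4 mesoderm markers. Every primitive endoderm marker was higher in PB-TERRA, among them Gata6 (1.22 and 2.26 FPKM). Nes (27.30 and 20.93) and Tubb3 (57.66 and 51.48) made up most of the neural sum, while Sox1 was higher (1.06 and 1.56). The part of these markers in the results was not tested.

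In mESCs, which run a high rate of glycolysis, glucose enters through facilitative carriers of the Slc2 family and lactate leaves through proton-coupled carriers of the Slc16 family. Amino acid carriers of the Slc1, Slc7 and Slc38 families feed protein synthesis and growth signalling. Most carriers of the Slc25 family lie in the inner membrane of mitochondria and exchange ATP, phosphate, citrate and other metabolites with the cytosol.

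The expressed solute carriers as a whole had a median ratio near 0 between the libraries. Their summed expression was 4484.99 FPKM in PB and 4279.69 in PB-TERRA, which is 0.901% and 0.883% of all FPKM. The median log2 ratio of FPKM + 0.1, PB-TERRA over PB, was 0.0015 with an SD of 0.21 across the 196 genes. Over all 12263 genes past 1 FPKM the median was -0.0044 with an SD of 0.31. Of the carriers, 99 were higher and 97 lower in PB-TERRA, beside 48.6% and 50.9% of all genes, and 140 (71.4%) lay within 0.2 of 0, as did 74.9% of all genes.

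A log2 ratio of 1 or more, higher or lower, was found for 0 of the 196 carriers, and for 0.913% of all genes past the filter (0.44% higher and 0.473% lower). At least 0.5 was reached by 7 carriers (3.57%), 3 higher and 4 lower, beside 4.67% of all genes (2.3% higher and 2.37% lower). Among the higher ones were Slc23a1 and Slc41a3, and among the lower ones were Slc25a43, Slc16a3 and Slc27a2. Of these, Slc23a1, Slc41a3 and Slc25a43 passed 1 FPKM in 1 library only, a filter through which a gene with a difference passes more easily. Such genes were 6 of the 196, 3 through PB and 3 through PB-TERRA.

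Read numbers are not in the table and were estimated from FPKM, gene length and the depth that the steps of low FPKM values give. Summed over genes they came to 24732706 in PB and 24883668 in PB-TERRA. An exact 95% interval (Clopper-Pearson) of the ratio of these reads covers counting error only, and it is given on the log2 scale without the added 0.1. This counting interval lay above 0 for 30 carriers (15.3%) and below 0 for 32 (16.3%), beside 18.2% and 17.5% of all genes past the filter. For 134 carriers it included 0, which means that this depth did not show a difference. Highly expressed genes have narrow intervals. Among the 8653 genes whose mean FPKM was 5 or more the shares were 20.8% above and 20.4% below 0, and among the 126 carriers of that level they were 15.9% (20 genes) above and 22.2% (28 genes) below 0. In one cell population, fewer cells that express a gene and less RNA per cell cannot be told apart.

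**Figure D1:**
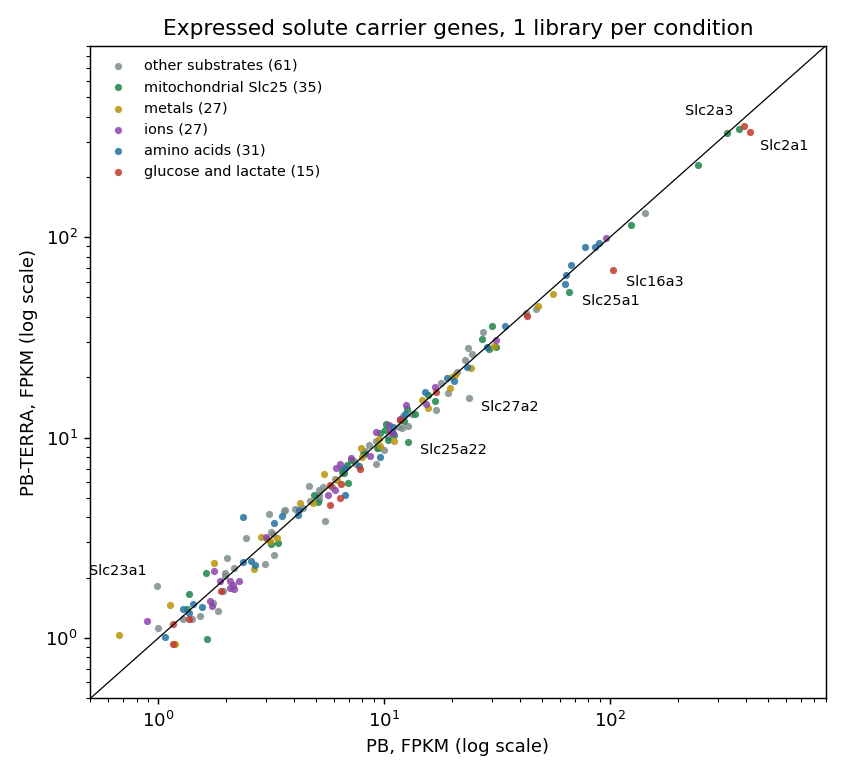
FPKM of each of the 196 expressed solute carrier genes in PB (x axis) and PB-TERRA (y axis), both on log scales, coloured by substrate, with the line of equal values. The points follow the line over the whole range of expression, and Slc16a3 and Slc27a2 (below it) and Slc23a1 (above it) stand farthest off among the labelled genes.

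The carriers spanned a wide range of levels, which are compared between genes by FPKM because it is scaled to gene length. The 5 most abundant genes held 39.1% of the carriers' FPKM in PB and 37.5% in PB-TERRA, and the 10 most abundant held 51.1% and 49.8%. In PB the order was Slc2a1 (415.03 FPKM), Slc2a3 (393.53), Slc25a5 (372.48), Slc25a3 (329.19) and Slc25a4 (244.70), that is, glucose uptake followed by the mitochondrial exchange of ATP and phosphate. In PB-TERRA the same genes led, with Slc2a3 at 357.90 FPKM, Slc25a5 at 348.16, Slc2a1 at 335.30, Slc25a3 at 332.27 and Slc25a4 at 229.80. At least 50 FPKM in both libraries was reached by 17 carriers, while 68 stayed under 5 FPKM in both.

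Around the threshold of 1 FPKM, the lowest genes that passed were Slc41a3 (0.67 and 1.04 FPKM in PB and PB-TERRA), Slc17a7 (1.07 and 1.01), Slc5a3 (1.0 and 1.12), Slc2a4 (1.16 and 0.93) and Slc2a5 (1.16 and 1.18). The highest that did not pass were Slc35g2 (0.90 and 0.87), Slc46a3 (0.87 and 0.42), Slc25a47 (0.65 and 0.86), Slc25a31 (0.83 and 0.66) and Slc4a4 (0.82 and 0.66). Of the 125 that did not pass, 52 were under 0.1 FPKM in both libraries and 9 were at the floor of 0.01. Among them were the cystine carrier Slc7a11 (0.34 and 0.29 FPKM), the monocarboxylate carrier Slc16a7 (0.12 and 0.14) and the sodium-calcium exchanger Slc8a1 (0.02 and 0.03).

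**Figure D2:**
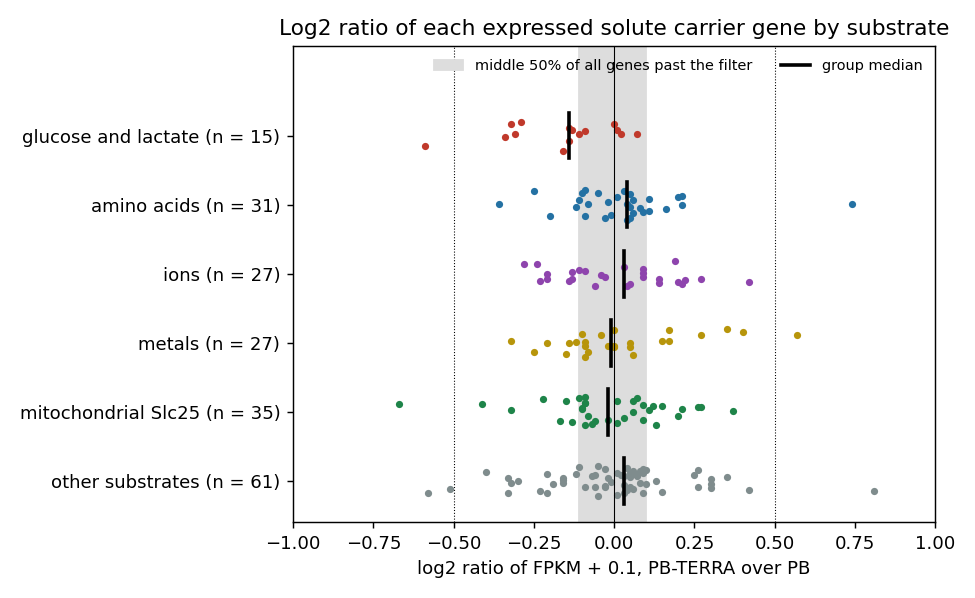
Log2 ratio of FPKM + 0.1, PB-TERRA over PB (x axis), of each expressed solute carrier gene by substrate group, with the group median as a black bar, dotted lines at 0.5 in either direction and the middle 50% of all genes past 1 FPKM in grey (-0.11 to 0.10). The median of the glucose and lactate carriers, -0.14, lies outside the grey band, and the medians of the other groups, from -0.02 to 0.04, lie inside it.

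Glucose and lactate carriers were the group that stood lowest in PB-TERRA. In the deposited data 33 genes belong to this group and 15 passed, and 11 of them were lower and 4 higher in PB-TERRA (73.3% lower, beside 50.9% of all genes). The median log2 ratio was -0.14, and -0.12 with the trend of the log2 ratio with gene length taken off. The counting interval lay below 0 for 6 of the 15 and above 0 for 0, beside 17.5% and 18.2% of all genes. At a mean FPKM of 5 or more it lay below 0 for 6 of 11 (54.5%), beside 20.4% of all genes. The summed level was 1020.98 FPKM in PB and 864.73 in PB-TERRA. This difference of the summed FPKM came largely from 3 genes, Slc2a1, Slc2a3 and Slc16a3.

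Slc16a3, the lactate exporter MCT4 of glycolytic cells, had 103.23 FPKM with the empty vector and 68.65 with TERRA. This was a log2 ratio of -0.59 (interval -0.65 to -0.53 from 6020 and 4029 estimated reads), the lowest among the carriers with at least 50 reads in 1 library. Slc16a1, the lactate carrier MCT1 that works in both directions, had 42.86 and 40.34 FPKM (log2 ratio -0.09, interval -0.15 to -0.03). The level of Slc16a3 was thus 2.41 times that of Slc16a1 in PB and 1.7 times in PB-TERRA. Slc16a13, a less studied relative, had 5.78 and 4.62 FPKM (log2 ratio -0.32, interval -0.55 to -0.09), and Slc16a6 had 5.74 and 5.80 FPKM (0.01). Over the 6 expressed genes of the Slc16 family, the median log2 ratio was -0.26, with the interval below 0 for 4 and above 0 for 0.

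Slc2a1, the basal glucose carrier GLUT1, had 415.03 and 335.30 FPKM (log2 ratio -0.31, interval -0.33 to -0.28). Slc2a3, the high-affinity glucose carrier GLUT3, had 393.53 and 357.90 FPKM (log2 ratio -0.14, interval -0.16 to -0.12). Slc2a1 was the more abundant of the pair in PB, at 1.05 times the level of Slc2a3, and the less abundant in PB-TERRA, at 0.937 times. The other Slc2 genes had little expression. The intracellular hexose carrier Slc2a8 had 6.41 and 5.85 FPKM, the insulin-responsive carrier Slc2a4 had 1.16 and 0.93, and the fructose carrier Slc2a5 had 1.16 and 1.18, and their intervals included 0.

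Among sugar phosphate carriers, Slc37a1 had 6.35 and 5.0 FPKM (log2 ratio -0.34, interval -0.54 to -0.15). Slc37a4, the glucose 6-phosphate carrier of the endoplasmic reticulum, had 1.90 and 1.72 FPKM, and Slc37a3 had 11.69 and 12.24. The intervals of both included 0. The most even gene of the group was Slc45a4, with 16.94 and 16.95 FPKM.

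**Figure D3:**
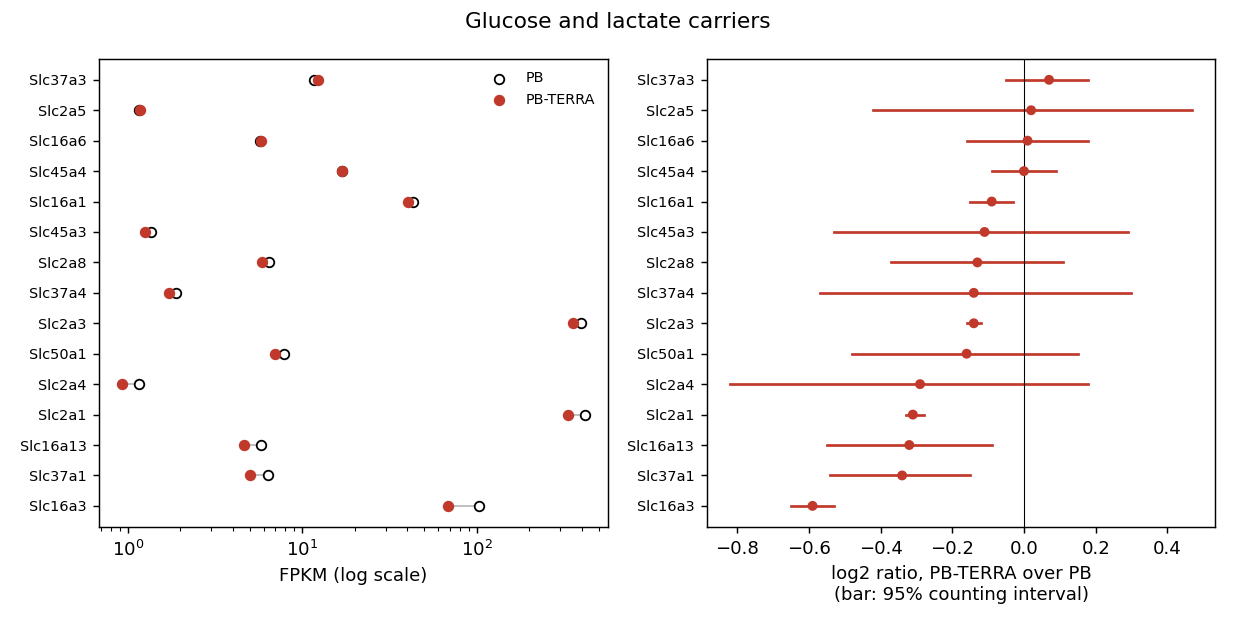
The 15 expressed glucose and lactate carriers, with FPKM in PB (open circles) and PB-TERRA (filled circles) on a log axis at left, and at right the log2 ratio of FPKM + 0.1 (points) with the 95% counting interval of the estimated reads (bars). The bars of 6 genes lie below 0 and none lies above 0, and Slc16a3 has the lowest ratio, -0.59.

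The 250 bases before the start sites of Slc2a1, Slc16a3 and Slc16a1 are shown, since these are the most abundant glucose and lactate carriers with an entry. They come from RefSeq on GRCm38.p6, by gene identifier, while the submitters' processing notes name mm9 for the deposited values. Slc2a3 had no entry there. The letter runs ACGTG and GCGTG, the core that hypoxia-inducible factors are known to bind, were searched on both strands and are in capitals, read on the printed strand. The palindrome that begins with C and holds ACGTG counts once on each strand. The windows are chr4:119108495-119108744 (+ strand) for Slc2a1, chr11:120948817-120949066 (+ strand) for Slc16a3 and chr3:104638414-104638663 (+ strand) for Slc16a1.
Slc2a1: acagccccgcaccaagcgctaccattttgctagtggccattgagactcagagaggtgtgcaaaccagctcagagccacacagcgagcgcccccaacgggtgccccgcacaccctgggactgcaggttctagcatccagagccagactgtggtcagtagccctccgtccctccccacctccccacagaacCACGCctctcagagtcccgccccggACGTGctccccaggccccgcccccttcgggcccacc
Slc16a3: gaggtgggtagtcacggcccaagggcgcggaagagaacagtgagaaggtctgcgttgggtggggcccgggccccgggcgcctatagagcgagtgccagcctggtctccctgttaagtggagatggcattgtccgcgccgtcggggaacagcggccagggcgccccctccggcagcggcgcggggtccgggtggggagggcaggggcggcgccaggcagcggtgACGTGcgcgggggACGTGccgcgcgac
Slc16a1: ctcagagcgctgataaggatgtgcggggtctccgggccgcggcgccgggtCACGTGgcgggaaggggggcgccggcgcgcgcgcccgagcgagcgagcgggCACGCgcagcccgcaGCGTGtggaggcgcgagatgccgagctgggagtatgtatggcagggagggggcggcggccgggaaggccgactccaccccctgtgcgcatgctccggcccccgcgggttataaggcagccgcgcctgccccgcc
Counted from -1 at the last base before the start, the matches begin at -61 and -36 in Slc2a1, at -27 and -14 in Slc16a3, and at -200, -199, -149 and -134 in Slc16a1. Such short letters are common. At least 1 match was in 38.6% of all 27025 promoters and in 58.4% of the 9473 promoters of genes past 1 FPKM. It was in 57.9% of the 145 carriers that had an entry and in 7 of 10 glucose and lactate carriers. The median GC content of these 10 promoters was 66.4%, beside 60.4% for genes past 1 FPKM. Within the group, Slc37a1 (log2 ratio -0.34) had 0 matches and Slc37a3 (0.07) had 2. A link between matches and ratios was not tested.

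Amino acid carriers were at even levels, and the most abundant of them, which feed glutamine, leucine and arginine to the cell, were slightly to one side or the other. In the deposited data 57 genes belong to this group and 31 passed, with a median log2 ratio of 0.04 (0.01 with the length trend taken off), 18 higher and 13 lower. The counting interval lay above 0 for 6 and below 0 for 3, beside 18.2% and 17.5% of all genes. Their summed level was 673.75 FPKM in PB and 696.16 in PB-TERRA.

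Slc3a2, the heavy chain (CD98hc) that pairs with several Slc7 light chains, had 85.99 and 88.80 FPKM (log2 ratio 0.05, interval -0.01 to 0.10). Its leucine-carrying partner Slc7a5 (LAT1) had 63.73 and 64.86 FPKM (0.03, interval -0.03 to 0.08), so that heavy and light chain stood in a ratio of 1.35 in PB and 1.37 in PB-TERRA. Slc7a7, the light chain of the y+L system for cationic amino acids, had 77.72 and 89.52 FPKM (log2 ratio 0.20, interval 0.15 to 0.26). Its relative Slc7a6 had 23.32 and 22.50 FPKM, and Slc7a8 (LAT2) had 1.36 and 1.33. Of the light chains, Slc7a7 thus had the higher ratio and the others had intervals that included 0.

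The arginine and lysine carriers stood on opposite sides. Slc7a3, the more abundant, had 62.95 and 58.37 FPKM (log2 ratio -0.11, interval -0.18 to -0.04), and Slc7a1 had 15.18 and 16.94 (0.16, interval 0.08 to 0.23). Slc38a2, the neutral amino acid carrier SNAT2 that responds to amino acid supply, was the most abundant gene of the group, with 89.61 and 93.51 FPKM (0.06, interval 0.02 to 0.10). Slc38a4 had 67.32 and 72.65 FPKM (0.11, interval 0.06 to 0.16) and Slc38a1 had 28.61 and 28.20 (-0.02, interval -0.08 to 0.04). Slc38a9, a lysosomal carrier that reports arginine to the growth kinase mTOR, had 2.38 and 2.39 FPKM.

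Slc1a5, the glutamine and neutral amino acid carrier ASCT2, had 19.05 and 19.75 FPKM (log2 ratio 0.05, interval -0.06 to 0.17). Slc1a4, the serine and alanine carrier ASCT1, had 9.59 and 8.03 FPKM (-0.25, interval -0.40 to -0.12), and the glutamate carrier Slc1a3 had 6.71 and 7.01. The lowest ratio of the group was that of the leucine carrier Slc43a1 (LAT3), with 6.67 and 5.16 FPKM (-0.36, interval -0.59 to -0.15). The taurine carrier Slc6a6 had 34.11 and 36.03 FPKM (0.08, interval 0.02 to 0.13) and the glycine carrier Slc6a9 had 1.56 and 1.43. Of the exonic bases of Slc6a9, 38.8% overlap Ccdc24 (0.15 and 0.55 FPKM) on the opposite strand in GENCODE M21, and the library kit does not mark strand. The lysosomal peptide and histidine carrier Slc15a4 had 7.77 and 7.22 FPKM.

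**Figure D4:**
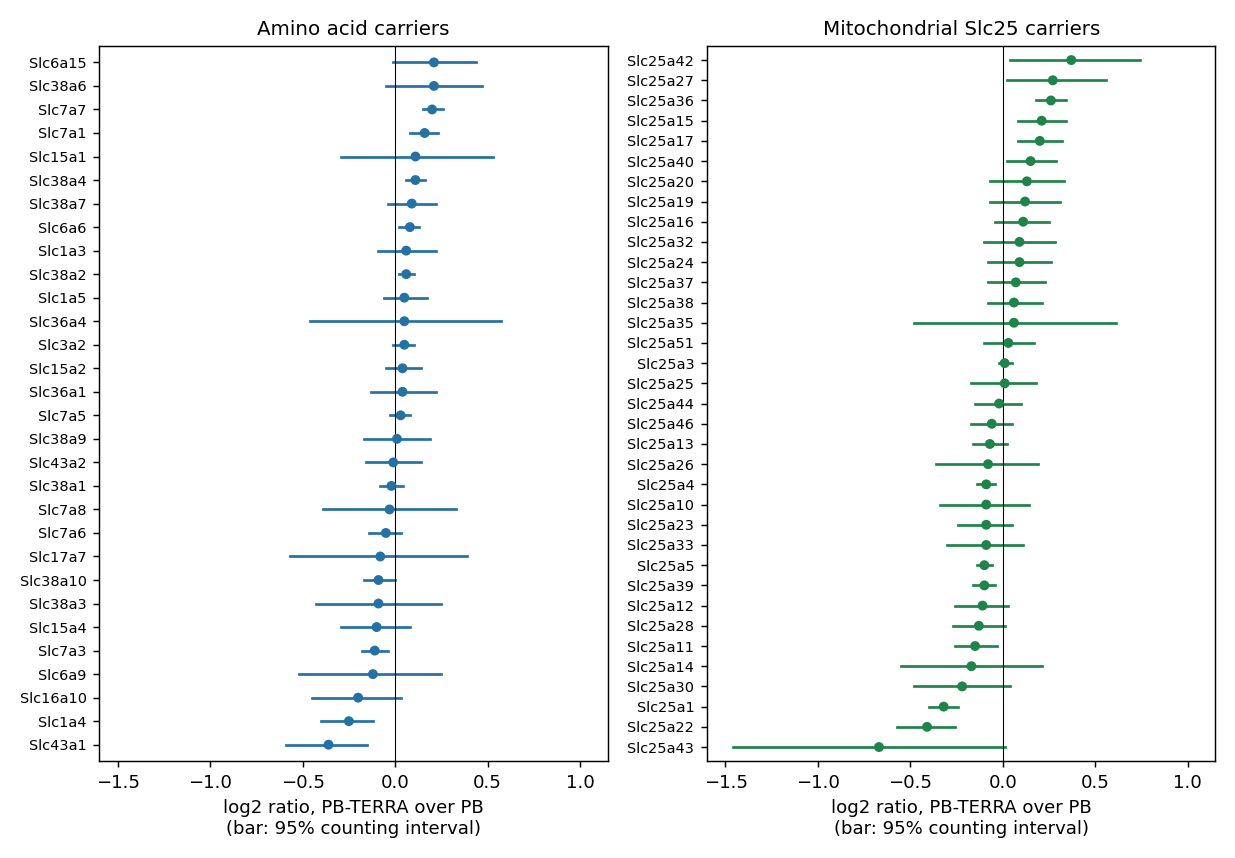
Log2 ratio of FPKM + 0.1, PB-TERRA over PB (points), with the 95% counting interval of the estimated reads (bars), for 30 of the 31 amino acid carriers at left and the 35 mitochondrial Slc25 carriers at right. Among the amino acid carriers shown, Slc43a1 has the lowest ratio, -0.36, and at right the wide bar of Slc25a43 (-1.46 to 0.01) comes with 44 and 27 estimated reads.

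Mitochondrial carriers of the Slc25 family held the largest share of the carriers' FPKM, 32.6% in PB, and as a group were level. Of 46 genes 35 passed, with a median log2 ratio of -0.02, 17 higher and 18 lower. The counting interval lay above 0 for 6 (17.1%) and below 0 for 6 (17.1%), near the 18.2% and 17.5% of all genes. The adenine nucleotide carriers, which exchange ATP for ADP, were Slc25a5 (ANT2) with 372.48 and 348.16 FPKM (log2 ratio -0.10, interval -0.14 to -0.06) and Slc25a4 (ANT1) with 244.70 and 229.80 (-0.09, interval -0.14 to -0.04). Slc25a5 was 1.52 times as abundant as Slc25a4 in both libraries. The phosphate carrier Slc25a3 had 329.19 and 332.27 FPKM (0.01, interval -0.02 to 0.05).

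Among carriers of citrate, glutamate and related acids, the interval lay below 0 for Slc25a1, Slc25a22 and Slc25a11 and included 0 for Slc25a13, Slc25a12 and Slc25a10. Slc25a1, which exports citrate for fatty acid synthesis, had 66.06 and 52.95 FPKM (log2 ratio -0.32, interval -0.40 to -0.24). Slc25a22, a glutamate carrier, had 12.71 and 9.54 FPKM (-0.41, interval -0.57 to -0.26), and the oxoglutarate carrier Slc25a11 had 31.23 and 28.23 (-0.15, interval -0.26 to -0.03). The aspartate-glutamate carriers of the malate-aspartate shuttle were Slc25a13, with 29.14 and 27.78 FPKM (-0.07, interval -0.16 to 0.02), and Slc25a12, with 11.09 and 10.26 (-0.11, interval -0.26 to 0.03). The dicarboxylate carrier Slc25a10 had 3.15 and 2.95 FPKM, the carnitine carrier Slc25a20 had 9.57 and 10.50, and the iron carrier Slc25a37 (mitoferrin) had 4.91 and 5.17, and the intervals of these included 0. The glutathione carrier Slc25a39 had 123.98 and 115.62 FPKM (-0.10, interval -0.16 to -0.04), while its relative Slc25a40 had 12.55 and 13.93 (0.15, interval 0.02 to 0.29).

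The interval lay above 0 for other members of the family. The pyrimidine nucleotide carrier Slc25a36 had 29.98 and 35.87 FPKM (log2 ratio 0.26, interval 0.18 to 0.34). The ornithine carrier Slc25a15 had 10.14 and 11.72 FPKM (0.21, interval 0.08 to 0.34), and Slc25a17, which lies in peroxisomes, had 26.97 and 31.02 (0.20, interval 0.08 to 0.32). The highest ratio was that of the coenzyme A carrier Slc25a42, from 1.62 and 2.12 FPKM (0.37, interval 0.04 to 0.74). The lowest was that of Slc25a43, whose substrate is not known, from 1.64 and 0.99 FPKM (-0.67), and its interval, -1.46 to 0.01, included 0.

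Carriers of inorganic ions had a median log2 ratio of 0.03 over 27 genes of 54 in the table, 14 higher and 13 lower. The median was 0.07 among the 16 whose mean FPKM was 5 or more, -0.00 with the length trend taken off and -0.03 with groups set by family number alone, so that its sign depended on these choices. The interval lay above 0 for 7 (25.9%) and below 0 for 2 (7.41%), beside 18.2% and 17.5% of all genes. The most abundant were the sodium-phosphate carriers Slc20a1, with 95.93 and 99.49 FPKM (log2 ratio 0.05, interval 0.01 to 0.10), and Slc20a2, with 31.36 and 30.62 (-0.03, interval -0.11 to 0.04). The sodium-potassium-chloride carrier Slc12a2 (NKCC1) had 10.50 and 11.60 FPKM (0.14, interval 0.05 to 0.24). The potassium-chloride carrier Slc12a4 had 12.51 and 14.56 (0.22, interval 0.10 to 0.33), while its relative Slc12a7, with 15.24 and 14.78 FPKM, had an interval that included 0.

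The bicarbonate carriers Slc4a7 and Slc4a2 had 11.69 and 12.44 FPKM (log2 ratio 0.09) and 10.97 and 10.50 FPKM (-0.06), and the sulfate carrier Slc26a2 had 7.15 and 7.90 (0.14). The highest ratio of the group was that of the exchanger Slc9b2, from 0.89 and 1.22 FPKM (0.42, interval -0.11 to 1.03), and the lowest that of Slc9a5, from 2.15 and 1.75 FPKM (-0.28, interval -0.56 to -0.04). Slc24a5 had 1.76 and 2.15 FPKM (0.27), but 36.5% of its exonic bases overlap Myef2 (71.25 and 73.50 FPKM) on the opposite strand, and without strand their reads cannot be told apart.

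Metal carriers were the group with the largest expressed share, 27 of 31 genes in the table. Their median log2 ratio was -0.01, with 12 higher and 15 lower, and the interval lay above 0 for 3 (11.1%) and below 0 for 6 (22.2%), beside 18.2% and 17.5% of all genes. Zinc importers of the Slc39 (ZIP) family summed to 207.59 FPKM in PB and 198.14 in PB-TERRA over 12 genes, and zinc exporters of the Slc30 (ZnT) family to 71.92 and 70.45 over 8 genes. The most abundant were Slc39a7, which releases zinc from the endoplasmic reticulum, with 55.67 and 52.01 FPKM (log2 ratio -0.10, interval -0.17 to -0.02), and Slc39a10, with 47.87 and 45.12 (-0.09, interval -0.14 to -0.03). Of the exonic bases of Slc39a7, 84.5% also belong to the gene model Gm20427 on the same strand. Slc39a1 had 30.74 and 28.78 FPKM (-0.09), and Slc39a14, which also carries iron, had 24.19 and 22.18 (-0.12, interval -0.19 to -0.06). Slc39a8, which carries zinc and manganese, had 2.65 and 2.22 FPKM (-0.25).

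Both zinc families held genes on either side. Of the importers 6 were higher and 6 lower in PB-TERRA, and Slc39a5 had 1.77 and 2.36 FPKM (log2 ratio 0.40, interval 0.06 to 0.77). Of the exporters 3 were higher and 5 lower. The plasma membrane exporter Slc30a1 had 5.40 and 6.55 FPKM (0.27, interval 0.13 to 0.43) and Slc30a2 had 7.91 and 8.90 (0.17, interval 0.01 to 0.33), while Slc30a9 had 19.46 and 17.62 (-0.14, interval -0.25 to -0.04), Slc30a6 had 11.10 and 9.58 (-0.21, interval -0.39 to -0.03) and Slc30a5 of the Golgi had 20.66 and 20.51 (-0.01). Mt1, a metallothionein that binds zinc and is outside the Slc symbols, had 544.15 and 411.86 FPKM (-0.40, interval -0.46 to -0.35), and Mt2 had 834.64 and 801.22 (-0.06, interval -0.10 to -0.02). For iron, the importer Slc11a2 (DMT1) had 15.64 and 14.10 FPKM (-0.15, interval -0.26 to -0.04), the exporter Slc40a1 (ferroportin) had 4.82 and 4.74 (-0.02, interval -0.23 to 0.18), and the transferrin receptor Tfrc had 82.74 and 84.52 (0.03). The copper importer Slc31a1 (CTR1) had 14.73 and 15.36 FPKM (0.06, interval -0.05 to 0.17) and the magnesium carrier Slc41a1 had 9.60 and 9.08 (-0.08). The ends of the group were Slc41a3 (0.57, from 36 and 56 estimated reads) and Slc30a3 (-0.32, from 56 and 44).

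The remaining 61 carriers, of 100 such genes in the table, take nucleosides, nucleotide sugars, vitamins, lipids and organic ions. Their median log2 ratio was 0.03, with 34 higher and 27 lower, and the interval lay above 0 for 8 (13.1%) and below 0 for 9 (14.8%), beside 18.2% and 17.5% of all genes. The 21 genes of the Slc35 family, which bring nucleotide sugars into the Golgi and the endoplasmic reticulum, had a median of 0.03 and a range from -0.30 to 0.35. Slc35a5 (2.45 and 3.15 FPKM) was the highest of them and Slc35f5 (16.91 and 13.72) the lowest. Slc35b1 had 47.06 and 43.59 FPKM (-0.11, interval -0.23 to 0.01) and Slc35a4 had 42.47 and 41.89 (-0.02).

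Slc29a1, the nucleoside carrier ENT1, was the most abundant gene of this set, with 143.49 and 132.20 FPKM (log2 ratio -0.12, interval -0.17 to -0.07), 10.8 and 10.1 times the level of its relative Slc29a2. The lysosomal nucleoside carrier Slc29a3 had 4.64 and 5.75 FPKM (0.30, interval 0.15 to 0.47). Slc27a2, a fatty acid carrier that also activates very long chains, had 23.64 and 15.77 FPKM (-0.58, interval -0.71 to -0.46). Its relative Slc27a4 had 10.34 and 10.11 FPKM (-0.03). The creatine carrier Slc6a8 had 27.33 and 33.74 FPKM (0.30, interval 0.23 to 0.38).

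Vitamin carriers stood on both sides. Slc23a1, an ascorbate carrier, had the highest ratio of all carriers, from 0.99 and 1.81 FPKM (log2 ratio 0.81, interval 0.44 to 1.30 from 71 and 130 estimated reads), while Slc23a2, the main ascorbate carrier here, had 10.87 and 10.66 FPKM (-0.03, interval -0.13 to 0.07). Slc23a2 was thus 11 times as abundant as Slc23a1 in PB and 5.89 times in PB-TERRA. The thiamine carrier Slc19a2 had 23.39 and 28.03 FPKM (0.26, interval 0.17 to 0.35) and the reduced folate carrier Slc19a1 had 12.75 and 11.42 (-0.16). The proton-coupled folate carrier Slc46a1 had 7.31 and 7.63 FPKM and the biotin and pantothenate carrier Slc5a6 had 8.22 and 8.61. The myo-inositol carrier Slc5a11 had 3.08 and 4.15 FPKM (0.42, interval 0.19 to 0.67). The choline carrier Slc44a2, with 17.90 and 18.63 FPKM, and the acetyl-CoA carrier Slc33a1, with 8.03 and 8.35 (32% of exonic bases shared with another gene model), had intervals that included 0.

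**Figure D5:**
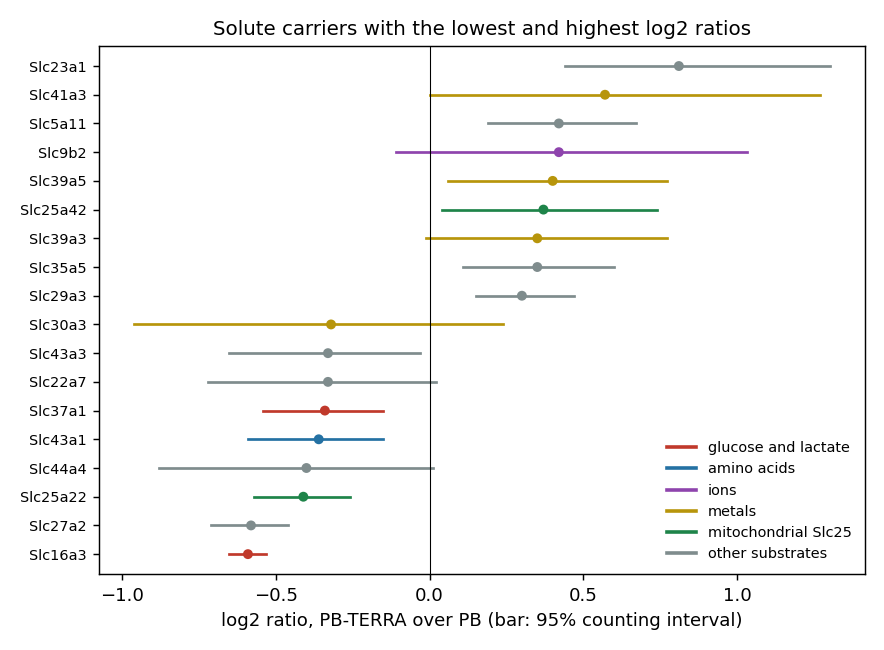
From the 10 lowest and the 10 highest, 18 log2 ratios (points, FPKM + 0.1, PB-TERRA over PB) among the 195 carriers with at least 50 estimated reads in 1 library, coloured by substrate, with the 95% counting interval of the estimated reads (bars). Slc16a3 (-0.59) is lowest and Slc23a1 (0.81) highest, and the bars of Slc44a4, Slc22a7, Slc30a3, Slc39a3, Slc9b2 and Slc41a3 reach across 0.

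Proteins that work with these carriers, or carry the same substrates under other symbols, were read from a list of 36 genes, all in the table, of which 35 passed 1 FPKM. Of these, 17 were higher and 18 lower, with a median log2 ratio of -0.02, and the interval lay above 0 for 6 (17.1%) and below 0 for 9 (25.7%), beside 18.2% and 17.5% of all genes. The chaperones that bring the lactate carriers to the membrane, Bsg (basigin) and Emb (embigin), had 207.82 and 195.83 FPKM (-0.09, interval -0.14 to -0.04) and 71.88 and 61.85 FPKM (-0.22, interval -0.28 to -0.15). The mitochondrial pyruvate carrier subunits Mpc1 and Mpc2 had 17.16 and 18.70 FPKM (0.12, interval -0.08 to 0.33) and 6.0 and 5.75 FPKM (-0.06, interval -0.46 to 0.34). Atp1b1, a beta subunit of the pump that keeps up the sodium gradient, had 35.46 and 40.44 FPKM (0.19, interval 0.11 to 0.27). Of the kinases that act on the Slc12 carriers, Wnk1 had 59.07 and 66 FPKM (0.16, interval 0.13 to 0.19), Oxsr1 had 39.97 and 38.51 (-0.05) and Stk39 had 2.24 and 1.5 (-0.55, interval -0.93 to -0.23). Txnip, which restrains glucose uptake, had 75.90 and 79.35 FPKM (0.06, interval 0.01 to 0.12).

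The median gene length of the carriers, which their choice did not use, was 3140 bases, beside 2800 for all genes past 1 FPKM. Across the 196 carriers, which share both libraries, Spearman's rho of the log2 ratio with gene length was 0.20 and with mean FPKM -0.03, and across all genes past the filter it was 0.18 and -0.01. By the cell component that gene annotation gives, the median log2 ratio was 0.02 for 44 carriers of the plasma membrane, beside -0.01 for all genes with that term. It was 0.01 for 15 carriers of the mitochondrion (all genes -0.02), -0.07 for 10 of the Golgi (all genes -0.01), 0.03 for 9 of the endoplasmic reticulum (all genes -0.01) and 0.04 for 8 of the lysosome (all genes -0.01). These log2 ratios come from the values that also chose the carriers. The annotation covers only part of the genes. The term for the mitochondrion was on 555 of the 12263 genes and on 15 carriers, though 35 Slc25 genes passed. The median GC content of the 250 bases before the start was 61.6% for 145 carriers and 60.4% for genes past the filter.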

How the data were processed

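The authors sequenced 1 library of each 46C mESC line, PB and PB-TERRA. The deposited table gives expression values per gene and library, read as FPKM from the values, which hold 2 decimals and go no lower than 0.01. The submitters' processing notes name HISAT, Cufflinks and mm9. The authors' log2 fold change, p-value and adjusted p-value (a score, since it is not limited to 1) columns of the deposited table were not used. How reads shared by similar genes were divided is not given in the sources used here.

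Depth was estimated from FPKM and gene length alone, as the value at which low FPKM of genes of 400 to 1500 bases (1002 in PB, 1104 in PB-TERRA) lay nearest to whole reads. After 115 bases (fitted) were subtracted from each length, 90.0% and 92.6% of these lay within 0.25 of a whole read. Log2 ratios use FPKM + 0.1 and genes of at least 1 FPKM in 1 library. Intervals are exact (Clopper-Pearson) on the rounded estimated reads and cover counting error only. The computations were tested on simulated reads that had counting error only and the same depth model, with 115 bases subtracted. Such a test cannot show whether that model suits the deposited values.

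Substrate groups were set by family with exceptions for single genes. The genes named were 64 listed transporters (61 passed), the most abundant of each group, the extremes with at least 50 reads, those around 1 FPKM and a list of partners. Other genes were named as relatives of these, after their values were seen. Members and lists were chosen with earlier results of these data known. Some of these genes are not reported here by name. No sample was left out. Alternatives were the pseudocount, scaling, filter, length trend (50 bins), interval and grouping. Exonic overlap came from GENCODE M21 (GRCm38) and promoters from RefSeq GRCm38.p6, which is not the build named for the values. Figures were drawn with matplotlib 3.10.9 and values computed with scipy 1.17.1, pandas 2.3.3 and numpy 2.4.6 under Python 3.11.15.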

Additional observations from a re-analysis of the deposited data

How the results depend on the processing

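The count of carriers whose log2 ratio reached 0.5, higher or lower, depended on low values. It was 7 with the filter of 1 FPKM, 24 with no filter, 2 with a mean of at least 5 FPKM (Slc16a3 and Slc27a2) and 3 with 1 FPKM added in place of 0.1, and it stayed at 7 with 0.01 added, with both other scalings and with the length trend taken off. The shares of all genes were 12.1% with no filter, 1.54% with a mean of at least 5 FPKM and 2.32% with 1 FPKM added. A ratio of at least 1 was reached by 1 gene with no filter, Slc35g3, from 1 and 7 estimated reads, beside 2.72% of all genes. The intervals lay on 1 side of 0 for 62 carriers (31.6%, beside 35.7% of all genes), for 46 at 99% (23.5%, beside 25.1%) and for 61 with the length trend taken off (31.1%, beside 35% of all genes). The median of each group moved by less than its members' median counting interval. That interval belongs to single genes and is wide (-0.11 to 0.18 for the ion carriers), so this does not show that the medians are stable. For the glucose and lactate carriers the median ranged from -0.14 to -0.11. For the ion carriers it went from 0.03 to -0.03 with groups set by family number alone. No paired analysis was possible because each condition has 1 library, and for the same reason no library could be left out.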
